A study of Homo sapiens with 6 samples.

Results

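The colony-stimulating factors and inflammatory cytokines described here are 10 genes, chosen by symbol from the 20111 genes of the deposited table. They are CSF1 and CSF2; IL6, IL11 and LIF; IL8 (CXCL8 in current nomenclature), CXCL1 and CXCL2; and IL1A and IL1B. Of the 10 genes, 9 passed the filter on low values (at least 1 FPKM in at least 2 libraries) and were tested among 11690 genes. IL1A did not pass it and is given by its levels alone.

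The libraries were made from the RNA of MDA-MB-231, a human triple-negative breast cancer line, after transfection with siNCOA3, siSHC1 or siControl. Cells were collected at 24 h and 48 h, giving 6 libraries with 1 library for each siRNA and time. NCOA3 encodes a coactivator of nuclear receptors and other transcription factors, and SHC1 encodes an adaptor that links receptor tyrosine kinases to Ras signalling. All groups were transfected cells of 1 line, and for the siRNAs no sequence, number or dose is given in the labels used here. As nothing in the labels says that libraries came from separate cultures, p-values measure only how far these libraries spread, and part of that spread may be technical. The siNCOA3 and siSHC1 comparisons share the siControl libraries.

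Colony-stimulating factors and inflammatory cytokines are secreted proteins through which tumour cells act on leukocytes and on themselves. CSF1 acts through CSF1R on monocytes and macrophages, and CSF2 (GM-CSF) on granulocytes, macrophages and dendritic cells. IL6, IL11 and LIF signal through receptors that share IL6ST (gp130) and activate JAK kinases and STAT3, while IL8, CXCL1 and CXCL2 attract neutrophils through CXCR2. IL1A and IL1B act through IL1R1 and induce many of the other cytokines by way of NF-kB. Many cytokine mRNAs are short-lived because proteins such as ZFP36 bind AU-rich elements, repeats of AUUUA, in their 3′ UTRs and start decay.

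The targeted transcripts were low where their siRNA was used. NCOA3 was at 1.85 FPKM at 48 h and 1.72 FPKM at 24 h in siNCOA3 cells, at 12.5 and 12.7 FPKM in siSHC1 cells, and at 11.4 and 10.3 FPKM in siControl cells. SHC1 was at 15.5 FPKM at 48 h and 14.7 FPKM at 24 h in siSHC1 cells, at 107 and 109 FPKM in siNCOA3 cells, and at 119 and 103 FPKM in siControl cells. FPKM count fragments per kilobase of the gene in every M sequenced, so levels can be compared between genes. The libraries summed to between 495518 and 553073 FPKM with 14796 to 15221 genes above 0. Read totals are not given, and the depth estimated from low values, relative to the siControl 24 h library, was 1.31 at 48 h and 1.19 at 24 h in siNCOA3 cells. It was 1.01 at 48 h and 1.03 at 24 h in siSHC1 cells, and 1.45 in the siControl 48 h library, the deepest.

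The line was checked against its markers. VIM, CD44, KRT18, EGFR, AXL and CAV1 were present in every library (VIM at 887 to 1020 FPKM), while ESR1 reached at most 0.0922 FPKM and PGR was at 0. Of 5 markers of receptor-positive breast cells, 3 were under 1 FPKM in all libraries (ESR1, PGR and FOXA1). The others, ERBB2 (26.9 to 35.5 FPKM) and GATA3 (4.67 to 5.56 FPKM), were not. Of 9 macrophage and monocyte markers, 6 were under 1 FPKM in all libraries, AIF1 and FCGR3A at 0, and CD68 (44.3 to 63.1 FPKM), CD14 (3.24 to 7.51 FPKM) and CSF1R (1.13 to 3.81 FPKM) were not. Their sum was 62.9 and 68.1 FPKM in siNCOA3 cells, 54.8 and 55.0 FPKM in siSHC1 cells, and 69.8 and 53.2 FPKM in siControl cells, at 48 h and 24 h. All 3 T cell markers, 3 of 6 fibroblast markers (DCN at 0) and 2 of 3 endothelial markers were under 1 FPKM. The other fibroblast markers were COL1A1 (2.16 to 7.47 FPKM), PDGFRB (2.07 to 4.18 FPKM) and COL1A2 (1.15 to 1.88 FPKM). The fibroblast sum was 8.77 and 7.45 FPKM in siNCOA3 cells, 13.7 and 11.3 FPKM in siSHC1 cells, the highest, and 9.53 and 5.74 FPKM in siControl cells, at 48 h and 24 h. The part of these markers in the siRNA differences was not tested.

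The levels of the 10 cytokines differed widely. CSF1 had the highest mean, 89.5 FPKM over the 6 libraries, above 95.5% of the genes in the table. LIF (mean 24.9 FPKM), CSF2 (16.4), IL11 (13.2) and IL6 (10.2) followed, then IL8 (3.51), CXCL1 (1.95), CXCL2 (1.42), IL1B (1.01) and IL1A (0.401). The ranges of neighbours in this order did not overlap for CSF1 and LIF or for IL1B and IL1A, and overlapped for every other pair of neighbours. Summed over the 10 genes, the level was 129 FPKM at 48 h and 106 FPKM at 24 h in siNCOA3 cells, 186 FPKM at both times in siSHC1 cells, and 212 and 157 FPKM in siControl cells. CSF1 made up between 43.9% and 67.6% of this sum.

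**Figure D1:**
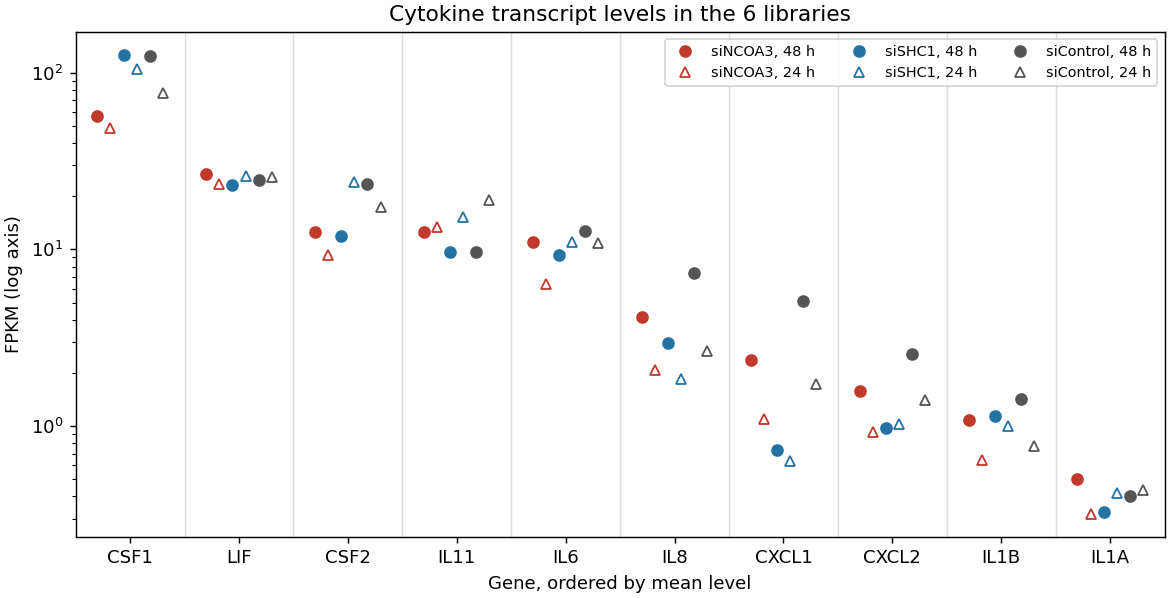
FPKM (log axis) of the 10 cytokines, ordered by mean level, with 1 point for each library: siNCOA3, siSHC1 and siControl from left to right, filled circles for 48 h and open triangles for 24 h. CSF1 is between 48.6 and 126 FPKM, with both siNCOA3 points lowest, and IL8, CXCL1 and CXCL2 are highest in siControl cells at 48 h.

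Most of these mRNAs carry dense AU-rich pentamers. The pentamer ATTTA, in DNA letters, was counted in the longest 3′ UTR of each gene (GENCODE release 29, basic set), a search chosen after the tests were set. All 10 genes had at least 1 match, as did 73.2% of 10907 tested genes with a 3′ UTR of 30 bases or more, and 9 of 10 had at least 5, as did 33.5% of the genes. The density was 25.2 per 1000 bases in CSF2, 14.0 in IL6, 13.9 in CXCL2, 9.84 in IL1B, 7.19 in IL8, 7.08 in CXCL1 and 5.56 in IL11, each above 93.8% or more of the genes. IL1A was at 4.34 per 1000 bases, and LIF (2.18) and CSF1 (1.86) were near the median gene (1.68). The overlapping repeat ATTTATTTA was in 6 of the 10 (CSF2, IL8, IL11, CXCL1, CXCL2 and IL1B) and in 7.63% of the genes. For each of the 7 densest genes, the stretch of 30 bases with the most ATTTA matches is shown, the first where several tied. It is not typical of the whole 3′ UTR. IL11, for instance, has 9 matches in 1618 bases, 3 of them in its stretch. Capitals mark ATTTA, and overlapping matches run together.
CSF2: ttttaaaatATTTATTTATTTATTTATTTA
IL6: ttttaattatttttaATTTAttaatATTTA
CXCL2: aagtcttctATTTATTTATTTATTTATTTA
IL1B: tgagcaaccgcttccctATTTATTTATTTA
IL8: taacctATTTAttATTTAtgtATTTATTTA
CXCL1: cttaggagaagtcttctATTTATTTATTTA
IL11: ttccaaagccagatcttATTTATTTATTTA
CSF2 and CXCL2 held the longest runs, with 5 overlapping pentamers each, whereas the matches of IL6 stand apart. The lines of CXCL1 and CXCL2 also share the bases before the run. A match describes the sequence and does not show that a factor acts on it.

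**Figure D2:**
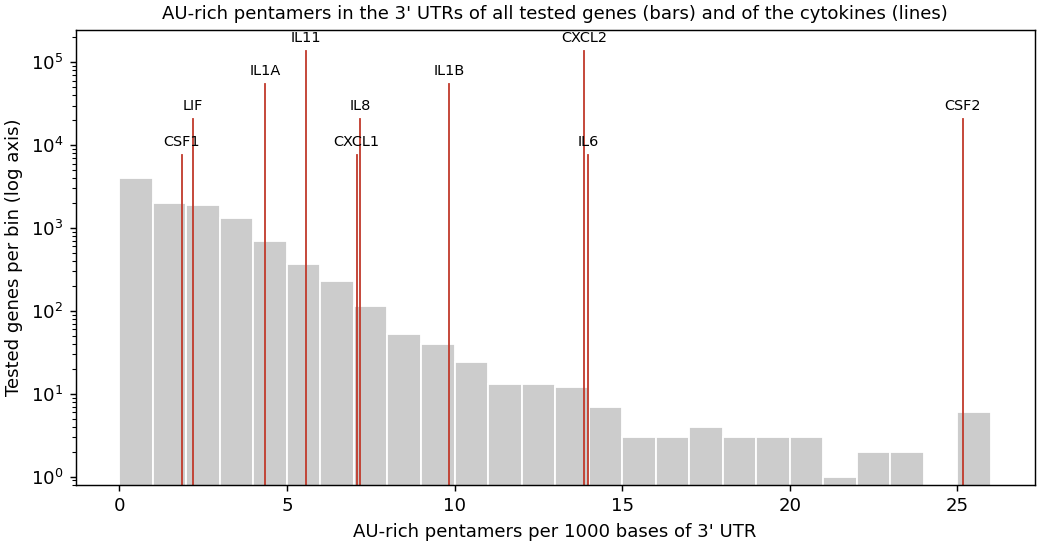
Number of tested genes (log axis) by the density of AU-rich pentamers per 1000 bases of 3′ UTR, with the 10 cytokines as vertical lines whose heights only place the names; densities above the scale are in the last bar. CSF2 is at 25.2, and LIF (2.18) and CSF1 (1.86) lie within the bulk of genes.

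Of the colony-stimulating factors, CSF1 fell in siNCOA3 cells and CSF2 was lower there without passing the test. CSF1 was at 56.8 FPKM at 48 h and 48.6 FPKM at 24 h in siNCOA3 cells, at 126 and 105 FPKM in siSHC1 cells, and at 125 and 76.6 FPKM in siControl cells. Both siNCOA3 libraries were below all the others, while siSHC1 and siControl libraries overlapped. After scaling between libraries, CSF1 in siNCOA3 cells was 46.0% of siControl at 48 h and 58.6% at 24 h. CSF1 fell in siNCOA3 cells by 0.93 ± 0.10 on the log2(scaled FPKM + 1) scale (SE, limma over 6 libraries, adjusted p = 0.0467). It was among 13 genes called in that comparison, 0.111% of the 11690 tested, all of them lower in siNCOA3 cells, and ranked 11 by p. The call was lost without the siNCOA3 48 h library (-0.83, adjusted p = 0.276), the siNCOA3 24 h library (-1.03, adjusted p = 0.108) or the siControl 48 h library (-0.77, adjusted p = 0.140).

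In siSHC1 cells, CSF1 was 0.19 ± 0.10 above siControl on the log2 scale (SE, limma, adjusted p = 0.281), which did not pass the test. Set directly against siNCOA3 cells, siSHC1 cells had 1.13 ± 0.10 more CSF1 on the log2 scale (SE, limma, adjusted p = 0.00325). CSF1 was higher in siSHC1 cells at both times, and was the sole cytokine of the 9 called in this comparison, which called 1139 genes or 9.74%. Its adjusted p lay between 0.00214 and 0.0260 when single libraries were left out. In bulk RNA, fewer cells making a transcript and less transcript per cell cannot be told apart.

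CSF2 was at 12.6 FPKM at 48 h and 9.31 FPKM at 24 h in siNCOA3 cells, at 11.9 and 24.1 FPKM in siSHC1 cells, and at 23.3 and 17.3 FPKM in siControl cells. Both siNCOA3 libraries were below both siControl libraries, at 54.5% of siControl at 48 h and 49.8% at 24 h. The siSHC1 libraries lay on either side of siControl. The fitted siNCOA3 difference of CSF2 was -0.88 ± 0.35 on the log2 scale (SE, limma, adjusted p = 0.493). Its error is shared with the siSHC1 libraries. With the siSHC1 libraries left out, the difference was -0.88 ± 0.11 with an adjusted p of 0.0335 (SE, limma). Of 15 alternatives, 12 left it uncalled, and the 3 that called it each left out siSHC1 libraries. It was -0.51 without the siNCOA3 24 h library and -1.25 without the siNCOA3 48 h library. Without the siControl 48 h library it was -0.59, and without the siControl 24 h library -1.17. For siSHC1 the fitted difference of CSF2 was -0.26 ± 0.35 (SE, limma, adjusted p = 0.689). Without the siSHC1 24 h library it was -0.92 ± 0.14 with an adjusted p of 0.0107, and without the siSHC1 48 h library it was 0.39 ± 0.14 with an adjusted p of 0.223. Against siNCOA3, the siSHC1 difference was 0.62 ± 0.35 (SE, limma, adjusted p = 0.315). It lay between -0.036 and 1.27 when single libraries were left out, and 13 of 15 alternatives kept its direction and left it uncalled.

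Of the IL-6 family, limma called none of IL6, IL11 and LIF in any comparison, although IL11 had an unadjusted p under 0.05 for time. IL6, an inducer of the acute phase response, was at 11.0 FPKM at 48 h and 6.40 FPKM at 24 h in siNCOA3 cells, at 9.28 and 11.0 FPKM in siSHC1 cells, and at 12.6 and 10.9 FPKM in siControl cells. The siNCOA3 24 h library stood lowest. On the scaled values, both siNCOA3 and both siSHC1 libraries were below both siControl libraries. The fitted differences of IL6 were -0.48 ± 0.21 for siNCOA3 (SE, limma, adjusted p = 0.494) and -0.23 ± 0.21 for siSHC1 (adjusted p = 0.536), and neither passed.

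IL11, known for its role in bone metastasis of breast cancer cells, was at 12.5 FPKM at 48 h and 13.4 FPKM at 24 h in siNCOA3 cells, at 9.62 and 15.2 FPKM in siSHC1 cells, and at 9.63 and 19.1 FPKM in siControl cells. At 24 h siControl was highest, and at 48 h it was level with siSHC1 and below siNCOA3. The fitted differences were -0.12 ± 0.21 for siNCOA3 (SE, limma, adjusted p = 0.884) and -0.19 ± 0.21 for siSHC1 (adjusted p = 0.610).

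LIF, which holds mouse embryonic stem cells in an undifferentiated state, was the steadiest of the 10. It was at 26.8 FPKM at 48 h and 23.5 FPKM at 24 h in siNCOA3 cells, at 23.2 and 25.9 FPKM in siSHC1 cells, and at 24.7 and 25.6 FPKM in siControl cells. All groups overlapped. Its fitted difference was -0.05 ± 0.11 for siNCOA3 (SE, limma, adjusted p = 0.908) and -0.07 ± 0.11 for siSHC1 (adjusted p = 0.737).

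The CXC chemokines IL8, CXCL1 and CXCL2 were lower in siSHC1 cells than in siControl cells at both times, and 2 of the 3 passed the test. CXCL1 was at 0.729 FPKM at 48 h and 0.639 FPKM at 24 h in siSHC1 cells, at 2.36 and 1.10 FPKM in siNCOA3 cells, and at 5.14 and 1.74 FPKM in siControl cells. The siSHC1 libraries were below all the others, and after scaling they held 14.5% of the siControl level at 48 h and 34.3% at 24 h. CXCL1 fell in siSHC1 cells by 1.30 ± 0.23 on the log2(scaled FPKM + 1) scale (SE, limma, adjusted p = 0.0300), which understates the change of so low a gene. The siSHC1 comparison called 751 genes, 6.42% of those tested, with 363 higher and 388 lower.

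IL8 was at 2.96 FPKM at 48 h and 1.85 FPKM at 24 h in siSHC1 cells, at 4.17 and 2.07 FPKM in siNCOA3 cells, and at 7.34 and 2.67 FPKM in siControl cells. The siSHC1 library was lowest at each time, although the siSHC1 48 h level lay above the siControl 24 h level. IL8 fell in siSHC1 cells by 0.74 ± 0.17 on the log2 scale (SE, limma, adjusted p = 0.0492), just inside the threshold of 0.05. CXCL2 was at 0.976 FPKM at 48 h and 1.03 FPKM at 24 h in siSHC1 cells, at 1.58 and 0.927 FPKM in siNCOA3 cells, and at 2.56 and 1.41 FPKM in siControl cells. Both siSHC1 libraries were below both siControl libraries. The siSHC1 difference of CXCL2 was -0.57 ± 0.18 on the log2 scale (SE, limma, adjusted p = 0.103) and did not pass.

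In siNCOA3 cells, too, the chemokines were below siControl at both times, but none passed the test. The fitted differences were -0.66 ± 0.23 for CXCL1 (SE, limma, adjusted p = 0.413), -0.51 ± 0.17 for IL8 (adjusted p = 0.386) and -0.42 ± 0.18 for CXCL2 (adjusted p = 0.472). Set against siNCOA3 cells, siSHC1 cells differed by -0.65 ± 0.23 for CXCL1 (SE, limma, adjusted p = 0.124) and -0.23 ± 0.17 for IL8 (adjusted p = 0.390). That the siRNAs differ in their effect on these chemokines was therefore not shown. With single libraries left out, the CXCL1 difference lay between -1.05 and -0.24, and 13 of 14 alternatives left it uncalled.

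The siControl 48 h library held the highest level of IL8, CXCL1, CXCL2, IL6 and IL1B, and was also the deepest. Without it, the siSHC1 differences were -0.95 for CXCL1 (limma, adjusted p = 0.139) and -0.50 for IL8 (adjusted p = 0.243). Without the siControl 24 h library, they were -1.66 for CXCL1 (adjusted p = 0.0561) and -0.99 for IL8 (adjusted p = 0.0776). Without the siSHC1 48 h library, they were -0.90 for CXCL1 (adjusted p = 0.0982) and -0.52 for IL8 (adjusted p = 0.256). The call of IL8 was also lost without the siNCOA3 48 h library (adjusted p = 0.0601) or the siNCOA3 24 h library (adjusted p = 0.0665). The part of depth in these differences was not tested.

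These 3 chemokines lie in 1 cluster on chromosome 4, where the RefSeq starts of CXCL8 and CXCL1 are 129 kb apart and those of CXCL1 and CXCL2 are 230 kb apart. CXCL1, CXCL2 and CXCL3 are near copies. Their longest shared run of transcript is 77 bases between CXCL1 and CXCL2, 55 between CXCL1 and CXCL3, and 97 between CXCL2 and CXCL3, and 5.73% of the 50-base stretches of CXCL1 occur in CXCL2. How reads shared between them were counted is not stated in the sources, so that the split between CXCL1 and CXCL2 is uncertain. IL8 shares no such stretch with CXCL1.

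The promoters of the cytokines were read for NF-kB, AP-1, C/EBP and TATA motifs, in RefSeq windows (GRCh38.p14) from 250 bases before to 50 bases after the start. Matches were sought on both strands for NF-kB in a long form (GGGA, 4 bases of any kind, CC) and in a short form (GGANTTTCC), and for AP-1 (TGANTCA) and C/EBP (TTNNGNAA), and for TATAAA, the TATA box, on the given strand. The short form was added after the tests were set. Windows were in the table for 8 of the 10 genes. The long form was in 5 of the 8 (CSF2, IL6, IL8, CXCL1 and CXCL2) and in 25.6% of all 34796 promoters. The short form was in 4 of the 8 (IL6, IL8, CXCL1 and CXCL2) and in 1.65% of all promoters. Matches of both forms overlap in IL6, CXCL1 and CXCL2, and not in IL8. AP-1 was in 3 of the 8 (IL8, IL11 and IL1A) and in 7.73% of all promoters. C/EBP was in 4 of the 8 and in 36.9%, and TATA in 2 (IL8 and IL1A) and in 7.37%. IL1A had more than 1 start listed, and the window of the first was counted. Its TATA match begins at -239, and the window of the other start holds no TATA match.

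The windows of the 3 chemokines, IL6 and CSF2 are shown because they hold the NF-kB matches. Capitals mark NF-kB, AP-1 and TATA matches. The windows are CXCL8 at chr4:73740319-73740618 (plus strand), CXCL1 at chr4:73869143-73869442 (plus strand), CXCL2 at chr4:74099146-74099445 (minus strand), IL6 at chr7:22726950-22727249 (plus strand) and CSF2 at chr5:132073539-132073838 (plus strand).
CXCL8: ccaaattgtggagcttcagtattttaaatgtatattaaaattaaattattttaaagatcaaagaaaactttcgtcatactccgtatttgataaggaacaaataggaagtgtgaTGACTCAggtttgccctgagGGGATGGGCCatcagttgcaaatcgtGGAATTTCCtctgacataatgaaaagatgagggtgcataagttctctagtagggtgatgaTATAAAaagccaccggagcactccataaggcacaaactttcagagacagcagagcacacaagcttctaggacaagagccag
CXCL1: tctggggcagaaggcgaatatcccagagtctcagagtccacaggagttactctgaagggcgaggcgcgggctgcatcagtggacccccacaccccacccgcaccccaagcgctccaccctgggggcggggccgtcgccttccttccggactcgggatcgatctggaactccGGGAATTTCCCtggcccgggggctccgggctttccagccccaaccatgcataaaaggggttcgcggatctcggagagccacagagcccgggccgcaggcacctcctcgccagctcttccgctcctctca
CXCL2: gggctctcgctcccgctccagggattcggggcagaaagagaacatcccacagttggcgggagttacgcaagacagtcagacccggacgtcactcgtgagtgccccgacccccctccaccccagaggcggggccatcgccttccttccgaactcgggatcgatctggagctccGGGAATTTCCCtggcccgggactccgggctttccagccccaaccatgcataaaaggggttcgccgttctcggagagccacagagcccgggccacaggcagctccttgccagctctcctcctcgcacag
IL6: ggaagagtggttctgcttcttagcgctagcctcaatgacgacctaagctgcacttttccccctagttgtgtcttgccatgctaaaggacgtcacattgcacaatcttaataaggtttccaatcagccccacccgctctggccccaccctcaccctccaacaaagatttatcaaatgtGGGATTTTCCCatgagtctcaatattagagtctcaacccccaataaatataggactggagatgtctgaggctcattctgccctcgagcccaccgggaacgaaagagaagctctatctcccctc
CSF2: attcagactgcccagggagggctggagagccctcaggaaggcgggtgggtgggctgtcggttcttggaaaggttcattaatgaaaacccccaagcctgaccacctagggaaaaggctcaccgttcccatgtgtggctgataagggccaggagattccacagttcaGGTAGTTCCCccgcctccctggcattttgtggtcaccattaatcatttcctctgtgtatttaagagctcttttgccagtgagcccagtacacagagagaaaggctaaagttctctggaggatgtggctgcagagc
With the start base at 0, the short NF-kB form begins at -91 in CXCL8, at -78 in CXCL1, at -77 in CXCL2 and at -72 in IL6, and the long form of CSF2 begins at -85. In CXCL8, AP-1 begins at -137 and TATA at -31. CXCL1 and CXCL2 share an unbroken run of 42 bases in these windows, whereas the longest run shared by CXCL8 and CXCL1 is 9 bases. A match describes these letters and is not a measured site.

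**Figure D3:**
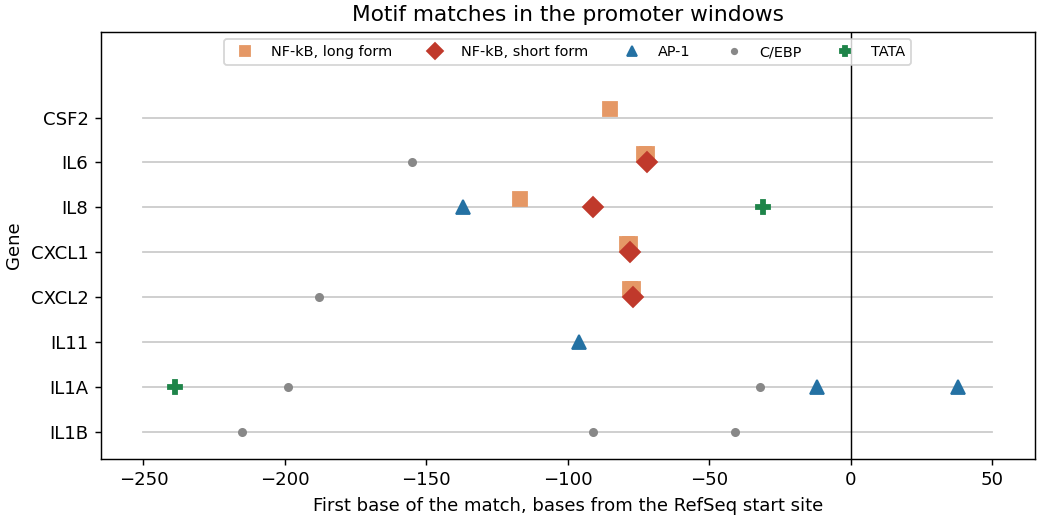
First base of each motif match, in bases from the RefSeq start site, in the promoter windows of the 8 cytokines in the table; squares and diamonds are the long and short NF-kB forms, and the other symbols are AP-1, C/EBP and TATA. The short form lies between -91 and -72 in IL8, CXCL1, CXCL2 and IL6, and is not marked in the others.

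By their means over the libraries, the IL-1 cytokines were the lowest of the 10, although IL1B was above CXCL1 in both siSHC1 libraries and above CXCL2 in the siSHC1 48 h library. IL1B, made as a precursor that caspase-1 cleaves, was at 1.08 FPKM at 48 h and 0.640 FPKM at 24 h in siNCOA3 cells, at 1.14 and 1.00 FPKM in siSHC1 cells, and at 1.42 and 0.776 FPKM in siControl cells. The groups overlapped. Its fitted difference was -0.19 ± 0.15 for siNCOA3 (SE, limma, adjusted p = 0.721) and -0.01 ± 0.15 for siSHC1 (adjusted p = 0.965). IL1A, an alarmin active without that cleavage, was at 0.505 and 0.319 FPKM in siNCOA3 cells, at 0.327 and 0.421 FPKM in siSHC1 cells, and at 0.404 and 0.433 FPKM in siControl cells, at 48 h and 24 h. It is too low for a statement on direction.

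Read together, the fitted siNCOA3 differences were below 0 for all 9 tested cytokines, with a median of -0.48, while all 11690 genes had a median of -0.0006 and 50.2% of them lay below 0. For siSHC1, 8 of 9 were below 0 and the median was -0.23, against 0.00 over all genes. For siSHC1 with siNCOA3, 4 were above and 5 below 0, with a median of -0.02. After scaling, 3 of the 9 had both siNCOA3 libraries below both siControl libraries (CSF1, CSF2 and IL6), as did 19.3% of all genes. At both times, 7 of the 9 were lower in siNCOA3 than in siControl, against 28.4% of genes. For siSHC1, both scaled libraries were below both siControl libraries for 3 of the 9 (IL6, CXCL1 and CXCL2), against 23.9% of genes. After scaling, 5 of the 9 were lower in siSHC1 than in siControl at both times (IL6, IL8, LIF, CXCL1 and CXCL2), against 33.9% of genes. Before scaling, IL6 (11.05 against 10.92 FPKM) and LIF (25.9 against 25.6 FPKM) were slightly higher in siSHC1 than in siControl cells at 24 h. These counts are descriptions, and the comparisons share controls.

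**Figure D4:**
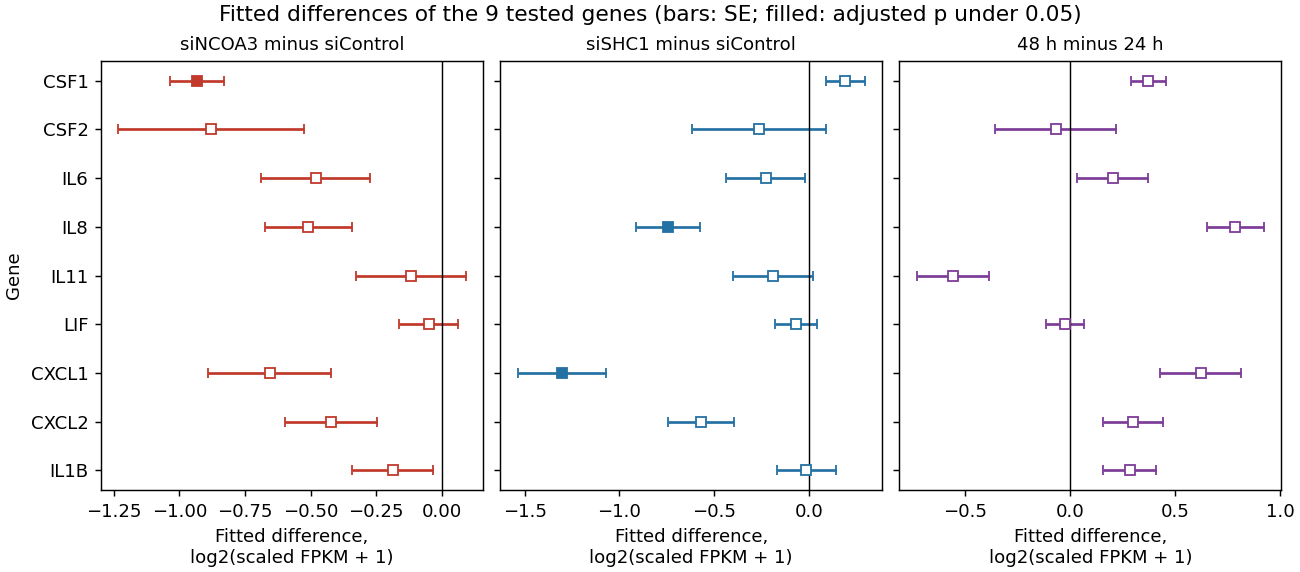
Fitted differences of the 9 tested cytokines on the log2(scaled FPKM + 1) scale for siNCOA3 minus siControl, siSHC1 minus siControl and 48 h minus 24 h; bars are standard errors, and filled squares have an adjusted p under 0.05. CSF1 is filled at -0.93 for siNCOA3, and IL8 (-0.74) and CXCL1 (-1.30) for siSHC1; none is filled for time.

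No cytokine was called by limma for time. Between 48 h and 24 h, 3 genes (0.0257%) were called, 2 higher and 1 lower at 48 h, and none of the 9 cytokines was among them. An unadjusted p under 0.05 was found for 4 of the 9, and for 1660 of all 11690 genes. The 4 cytokines were IL8 (0.79 ± 0.14 higher at 48 h on the log2 scale, SE, adjusted p = 0.281), CXCL1 (0.62 ± 0.19, adjusted p = 0.289), CSF1 (0.37 ± 0.08, adjusted p = 0.281) and IL11 (-0.56 ± 0.17, adjusted p = 0.291). CSF1, IL8, CXCL1 and IL1B were higher at 48 h than at 24 h for each siRNA, which held for 4 of the 9 and for 20.8% of all genes. IL11 was lower at 48 h for each siRNA, by 0.07 in siNCOA3 cells, 0.59 in siSHC1 cells and 1.02 in siControl cells on the log2 scale.

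The siRNA differences were not the same at both times, and with 1 library for each siRNA and time this could not be tested. For CXCL1 the siSHC1 difference from siControl was -1.81 at 48 h and -0.80 at 24 h on the log2 scale, a change exceeded in size by 1.09% of genes. For CSF2 it was -0.89 at 48 h and 0.37 at 24 h, a change exceeded by 80 genes or 0.684%. For IL11 the siNCOA3 difference was 0.36 at 48 h and -0.59 at 24 h, exceeded by 1.50% of genes. The CSF1 difference of siNCOA3 was below 0 at both times, -1.11 at 48 h and -0.76 at 24 h.

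**Figure D5:**
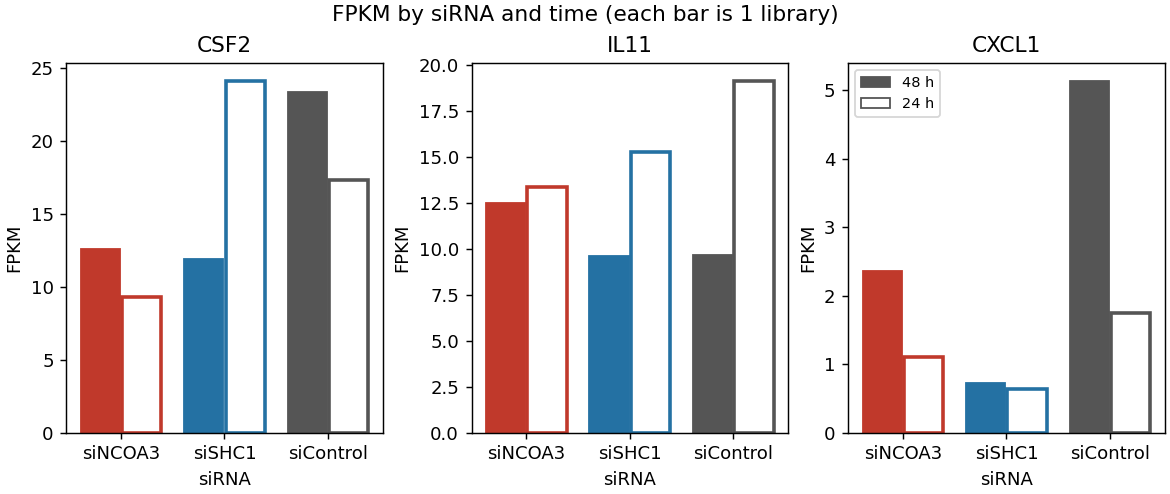
FPKM of CSF2, IL11 and CXCL1 in siNCOA3, siSHC1 and siControl cells, each bar being 1 library, filled for 48 h and open for 24 h. CSF2 in siSHC1 cells is at 11.9 FPKM at 48 h and 24.1 FPKM at 24 h, while siNCOA3 and siControl cells are higher at 48 h; IL11 in siControl cells is at 9.63 FPKM at 48 h and 19.1 FPKM at 24 h.

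Receptors for the 10 cytokines were present for some of them only. IL6ST was at 242 to 343 FPKM, CSF2RA had a mean of 17.5 FPKM, IL1RAP of 12.7 FPKM and LIFR of 12.4 FPKM. IL1R1 had a mean of 7.37 FPKM and IL11RA of 2.08 FPKM, while IL6R, at a mean of 0.427 FPKM, did not pass the filter. CXCR1 was at 0 in all libraries, CXCR2 did not exceed 0.00382 FPKM, and CSF2RB, the signalling chain for CSF2, had a mean of 0.0224 FPKM. Of 17 receptor genes and antagonists listed, 9 were tested, and limma called none with siNCOA3 or siSHC1 against siControl or by time (no adjusted p under 0.05). In siSHC1 against siNCOA3 cells, CSF1R (1.04, adjusted p = 0.0171) and OSMR (0.45, adjusted p = 0.0481) were higher on the log2 scale, beside 9.74% of all genes called. CSF1R, the receptor of CSF1, was at 3.81 and 3.22 FPKM in siSHC1 cells, at 1.13 and 1.25 FPKM in siNCOA3 cells, and at 2.29 and 1.20 FPKM in siControl cells, at 48 h and 24 h. The largest siNCOA3 differences from siControl were those of CSF1R (-0.32) and IL1R1 (-0.28), and the largest for siSHC1 those of CSF1R (0.72, adjusted p = 0.0567) and IL1RAP (0.52, adjusted p = 0.0529).

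Other secreted cytokines and chemokines were higher in siSHC1 cells where they were called. Of 34 listed, 16 were tested, with 5 higher and 0 lower in siSHC1 than in siControl cells, where 6.42% of all genes were called. They were CCL26 (1.09 ± 0.22 on the log2 scale, SE, limma, adjusted p = 0.0380), CXCL16 (1.05 ± 0.15, adjusted p = 0.0168), the IL-6 family member CLCF1 (0.68 ± 0.10, adjusted p = 0.0168), CCL28 (0.54 ± 0.12, adjusted p = 0.0471) and MIF (0.40 ± 0.08, adjusted p = 0.0342). Their direction was opposite to that of CXCL1 and IL8. Against siNCOA3 cells, siSHC1 cells had 5 higher and 0 lower (9.74% of all genes called), namely CXCL16, CCL26, CCL28, CX3CL1 (0.55) and TNFSF10 (1.16), the apoptosis-inducing ligand TRAIL. None was called for siNCOA3, where TNFSF10 differed by -0.88 (adjusted p = 0.105) and IL15 by -0.41 (adjusted p = 0.405).

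Transcription factors and signalling genes upstream of the cytokines were counted in the same fits. Of 22 NF-kB subunits and regulators tested, 1 was higher and 2 were lower in siSHC1 than in siControl cells, beside 6.42% of all genes called. IKBKG, the regulatory subunit of the IkB kinase, was higher by 0.54 ± 0.11 (SE, limma, adjusted p = 0.0435). NFKB1, the precursor of p50, fell by 0.58 ± 0.09 (adjusted p = 0.0205), and IRAK1, a kinase below the IL-1 receptor, fell by 0.46 ± 0.07 (adjusted p = 0.0204). The same 3 genes were called, in the same directions, for siSHC1 with siNCOA3, beside 9.74% of all genes. With siNCOA3 none of the 22 was called, and the largest differences were NFKBIZ (-0.65, adjusted p = 0.651) and RELB (-0.41, adjusted p = 0.301). NFKBIZ, which in mouse macrophages helps NF-kB induce Il6, was at 15.6 FPKM in the siControl 48 h library and between 4.61 and 7.41 FPKM in the others.

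Of 11 AP-1 and C/EBP factors tested, none was called against siControl by limma, and FOSL1 fell in siSHC1 against siNCOA3 cells by 0.56 ± 0.13 (SE, adjusted p = 0.0489), 1 call of 11 beside 9.74% of all genes. FOS had the largest difference in both comparisons, -0.54 for siNCOA3 (adjusted p = 0.480) and -0.73 for siSHC1 (adjusted p = 0.106), followed by ATF3 (0.24) for siNCOA3 and FOSL1 (-0.37) for siSHC1. Of 13 JAK-STAT3 genes, JAK1 fell in siSHC1 cells by 0.47 ± 0.08 against siControl (adjusted p = 0.0280), and none was called with siNCOA3, SOCS1 differing by -0.24 and STAT5B by -0.22. That 1 call of 13 is near the share over all genes, 6.42%. Against siNCOA3, JAK1 fell by 0.40 and SOCS1 was 0.64 higher in siSHC1 cells, beside 9.74% of all genes called.

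Of 14 genes for the decay of AU-rich mRNAs, 1 was higher and 2 were lower in siSHC1 than in siControl cells, beside 6.42% of all genes called. ZFP36L1, which binds AU-rich elements, was at 50.1 and 62.5 FPKM in siSHC1 cells, at 112 and 110 FPKM in siNCOA3 cells, and at 92.5 and 93.2 FPKM in siControl cells, at 48 h and 24 h. It fell in siSHC1 cells by 0.75 ± 0.09 against siControl (SE, limma, adjusted p = 0.0114) and by 0.96 ± 0.09 against siNCOA3 (adjusted p = 0.00395). The RNase ZC3H12A, which cleaves IL6 mRNA, fell by 0.59 ± 0.11 against siControl (adjusted p = 0.0351), and the deadenylase CNOT8 was 0.60 ± 0.11 higher (adjusted p = 0.0292). CNOT8 was also called higher against siNCOA3, so that 2 of the 14 were called there beside 9.74% of all genes. With siNCOA3 none was called, ZC3H12A differing by -0.48 (adjusted p = 0.303) and ZFP36 by 0.27 (adjusted p = 0.727).

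Of 11 genes tested for IL-1 processing and the inflammasome, GSDMD, the pore through which IL1B leaves cells, fell in siSHC1 cells by 0.42 ± 0.09 against siControl (SE, limma, adjusted p = 0.0415). The inflammatory caspase CASP4 fell by 0.85 ± 0.16 against siNCOA3 (adjusted p = 0.0241). Each is 1 call of 11, near the share over all genes, 6.42% against siControl and 9.74% against siNCOA3. With siNCOA3 none was called, CASP4 differing by 0.50 (adjusted p = 0.376) and GSDMD by -0.22 (adjusted p = 0.455). CASP1, which cleaves the IL1B precursor, had a mean of 1.60 FPKM. In none of these lists was a gene called by time, the largest differences of 48 h from 24 h being IL24 (-0.66, adjusted p = 0.401) and ZC3H12A (0.64, adjusted p = 0.281). The largest time differences of the remaining lists were those of OSMR (0.29) and CSF2RA (0.26) among receptors, BCL3 (0.39) and NFKBIA (0.31) in NF-kB, and JUND (0.46) and CEBPD (0.34) in AP-1 and C/EBP. They were those of SOCS3 (0.25) and PIAS3 (0.23) in JAK-STAT3 and of CASP1 (0.44) and CASP4 (0.25) in IL-1 processing, and TNFSF10 (0.49) and AGO2 (-0.36) came next to IL24 and ZC3H12A in theirs.

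For each cytokine averaging 1 FPKM or more, the most similar profiles over the 6 libraries were sought among 8921 genes averaging 5 FPKM or more. Likeness was the root mean square difference in log2(scaled FPKM + 1) after centring each gene on its own mean. Nearest to CSF1 were TNFSF10 (0.10) and HBP1 (0.11), when CSF1 itself varied by 0.53. NNMT was nearest to both IL8 (0.20) and CXCL1 (0.22), followed by PTCH1 (0.27) for IL8 and STMN3 (0.33) for CXCL1. Nearest to CSF2 were C5orf63 (0.17) and MPDZ (0.23), to IL6 RP11-77K12.1 (0.05) and USP40 (0.10), and to IL11 RRS1 (0.09) and DSCC1 (0.10). TFPT (0.03) and PDDC1 (0.03) lay nearest to LIF, PRRC2B (0.09) and WDR45 (0.12) to CXCL2, and MOB3A (0.02) and MREG (0.05) to IL1B. With 6 libraries, small distances are easily found among so many genes.

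Short words that an earlier account of these data had picked from the fold changes in 3′ UTRs were also looked up. GTCAAGA was in the 3′ UTRs of CSF1 and IL11 and in 9.41% of tested genes, and GCCCATC was in that of LIF and in 8.85%. As the words were chosen with these fold changes, they support no statement on the cytokines.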

How the data were processed

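RNA sequencing of 6 libraries was used, from MDA-MB-231 cells collected 24 h and 48 h after transfection with siNCOA3, siSHC1 or siControl. The authors deposited FPKM per gene symbol. The table is named for read counts, but its values are not whole and 1 fragment is worth less in longer genes. STAR, Cufflinks, DESeq2 and hg19 are named, without roles, per the submitters' processing notes; the annotation is not given in the sources used here. Depth per library is unknown beyond the relative estimate, so that no counting interval is given.

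FPKM were scaled by the median of ratios over 11042 genes (factors 0.947 to 1.02). Genes with at least 1 scaled FPKM in at least 2 libraries (11690) entered limma 3.58.1 (R 4.3.3, trend and robust moderation) as log2(scaled FPKM + 1), a pseudocount of 1. The model had additive terms for siRNA and time over 6 libraries, leaving 2 residual degrees of freedom, and its error includes any siRNA-by-time difference. P-values were adjusted by Benjamini-Hochberg over all genes tested, with a threshold of 0.05. The fit was tested on simulated data, with planted differences equal at both times and independent noise of the same spread for every gene. Those data held no siRNA-by-time difference, so they do not show how the fit performs where one is present. Promoters are from RefSeq (GRCh38.p14) and 3′ UTRs from GENCODE release 29 (GRCh38), matched by symbol.

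The members and lists were chosen with earlier results of these data known. All 10 members are named. From each list the text names members called when 6 or fewer are called, or otherwise the largest differences with a mean of at least 1 FPKM; receptor levels and genes named by their level stand outside that rule and were chosen after their values were seen. Alternatives covered scaling, pseudocount, filter, moderation, model terms, the siRNAs fitted and each library left out.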

Additional observations from a re-analysis of the deposited data

Results flagged for a closer look

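The siRNA difference had opposite signs at 48 h and 24 h for CSF2, IL11, LIF and IL1B, and the difference between times had opposite signs between siRNAs for CSF2, IL6, LIF and CXCL2. These differences were not tested, since each value rests on single libraries, and several are near 0. IL11 in siNCOA3 cells differed from siControl by 0.36 at 48 h and by -0.59 at 24 h on the log2(scaled FPKM + 1) scale. CSF2 in siSHC1 cells differed from siControl by -0.89 at 48 h and by 0.37 at 24 h. The smaller reversals were LIF in siNCOA3 cells (0.12 at 48 h and -0.22 at 24 h), IL1B in siSHC1 cells (-0.16 and 0.13) and IL11 in siSHC1 cells (0.023 and -0.40). The 48 h level of CSF2 differed from its 24 h level by 0.42 in siNCOA3 cells, by -0.94 in siSHC1 cells and by 0.31 in siControl cells. For IL6 these differences were 0.72 in siNCOA3 cells, -0.21 in siSHC1 cells and 0.10 in siControl cells. For LIF they were 0.20, -0.14 and -0.15, and for CXCL2 0.43, -0.031 and 0.50, in siNCOA3, siSHC1 and siControl cells.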

How the results depend on the processing

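CSF1 kept its direction in siNCOA3 cells under all 15 alternatives and its call under 8 of them. CXCL1 and IL8 in siSHC1 cells were tested under 14 alternatives and kept their direction under all 14. The call of CXCL1 was kept under 9 of the 14 and that of IL8 under 4 of the 14. CSF1 in siSHC1 against siNCOA3 cells kept its call under 14 of 15. Without scaling, limma called 7 genes for siNCOA3 with 0 cytokines, and 1 cytokine for siSHC1. With no filter on low values it called 0 genes for siNCOA3 (1375 at an unadjusted p under 0.05), 2 for siSHC1, 4 for siSHC1 with siNCOA3 and 0 for time (1698 unadjusted), with 0 cytokines throughout; 16511 genes are then tested, and the cause was not tested. With a filter at 5 FPKM, 0 cytokines were called for siSHC1, as IL8 and CXCL1 were not tested. Without robust moderation the cytokines called were 0 for siNCOA3 and 1 for siSHC1. With no term for time or siRNA (no replicate block), 226 genes were called for siSHC1, 450 for siSHC1 with siNCOA3 and 1 for time, and 0 cytokines for siNCOA3 and 0 for siSHC1. With only the siRNAs compared, 2 cytokines were called for siNCOA3 (CSF1 and CSF2) and 1 for siSHC1 (CXCL1). With single libraries left out, the genes called ranged from 2 to 38 for siNCOA3, 62 to 867 for siSHC1, 233 to 1034 for siSHC1 with siNCOA3 and 0 to 64 for time, and the cytokines called from 0 to 2, 0 to 3, 1 to 2 and 0 to 0. Where 1 library remained for an siRNA, it was assumed to vary like the others. Time stands in the model as the block that pairs the siRNAs, and the fit with no replicate block is the one without that term.

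Directions turned when single libraries were left out for siNCOA3 in IL11 (-0.49 to 0.25) and LIF (-0.22 to 0.12); for siSHC1 in CSF2 (-0.92 to 0.39), IL6 (-0.54 to 0.080), IL11 (-0.53 to 0.15), LIF (-0.16 to 0.016) and IL1B (-0.15 to 0.12); for siSHC1 with siNCOA3 in CSF2 (-0.036 to 1.27), IL6 (-0.13 to 0.64), IL11 (-0.44 to 0.29), LIF (-0.19 to 0.15) and CXCL2 (-0.39 to 0.10); and for time in CSF2 (-0.31 to 0.37), IL6 (-0.055 to 0.41) and LIF (-0.14 to 0.033). IL1B in siSHC1 cells turned to 4.67e-05 without scaling. Other causes were not tested.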

Other observations

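CSF3 (G-CSF) and CXCL3, relatives of the cytokines above, did not pass the filter on low values and were given no test; they are named after their values were seen, beyond CXCL3 as a near copy. CSF3 was at 0.466 FPKM at 48 h and 0.324 FPKM at 24 h in siNCOA3 cells, at 0.370 and 0.364 FPKM in siSHC1 cells, and at 1.10 and 0.814 FPKM in siControl cells. CXCL3 was at 0.492 and 0.328 FPKM in siNCOA3 cells, at 0.388 and 0.328 FPKM in siSHC1 cells, and at 0.877 and 0.702 FPKM in siControl cells, at 48 h and 24 h. For both genes all 4 libraries of the targeting siRNAs were below both siControl libraries. Among other low chemokines that were not tested, this also held for CCL2, but not for CXCL5, CXCL10 or CXCL11. Among tested genes, both siNCOA3 libraries were below both siControl libraries for 19.3%, and both siSHC1 libraries for 23.9%. The share with both siRNAs below was not counted. Like IL1A, these genes are too low for a statement on direction. The promoter window of CXCL3 holds the short NF-kB form at -78, as that of CXCL1 does, and the windows share an unbroken run of 25 bases.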
